A study of Mus musculus with 12 samples.

Results

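The genes described here are 33 genes of the unfolded protein response and the integrated stress response, measured in mouse liver. They were chosen by symbol, with earlier results of these data known, from a table of exon counts with 38087 genes. All 33 were in the table and passed the filter on low counts that left 14235 genes for testing. Total RNA was sequenced from livers of germ-free male C57BL/6j mice aged 13 to 16 weeks, 6 libraries from mice given recombinant human growth hormone (GH) and 6 from mice given phosphate-buffered saline (PBS). Injections were subcutaneous, at zeitgeber times (ZT, hours after lights on) 2 and 14, for 5 days, with 50 µg of hormone per mouse (the labels leave unsaid whether per injection). All livers carry the label ZT 2, so the values describe 1 time of day. Every animal, PBS controls included, lacked a gut microbiota. Whole liver was used, so fewer cells of a type and less RNA per cell cannot be told apart. The labels do not say that each library came from a separate animal, and p-values therefore measure the spread between these libraries.

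The endoplasmic reticulum (ER) folds the proteins a cell secretes, and hepatocytes secrete most plasma proteins. When unfolded proteins build up there, the membrane sensors IRE1 (Ern1), PERK (Eif2ak3) and ATF6 are released from the chaperone BiP (Hspa5). IRE1 splices the Xbp1 transcript and ATF6 is cut to release a transcription factor, and both raise genes for chaperones and for ER-associated degradation, which returns misfolded proteins to the cytosol. PERK phosphorylates eIF2alpha, as do other kinases that sense amino acid shortage, haem lack or viral RNA, and the resulting translation of ATF4 raises amino acid synthesis genes and CHOP (Ddit3). Gene counts show the amount of each transcript. Xbp1 splicing, ATF6 cleavage and eIF2alpha phosphorylation were not measured.

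The DNA elements through which these factors are known to act were searched on both strands in 300-base windows, from 250 bases before to 50 after each RefSeq gene start (build GRCm38.p6). Windows matched 28 of the 33 genes. Atf6, Hyou1, Manf, Derl1 and Ppp1r15b had none. The ER stress response element, a CCAAT box and a CCACG box with 9 bases of any kind between them, which ATF6 and XBP1 bind with NF-Y, was found in 9 of these 28 genes and in 0.119% of 32851 windows. Its shorter form, ERSE-II (ATTGG, any 1 base, CCACG), was in 2 of them and in 0.0365% of windows. The C/EBP-ATF response element bound by ATF4, CARE (TTNCATCA), was in 4 of them and in 3.97% of windows, and the XBP1 element UPRE (TGACGTGG) was in none of them and in 0.676% of windows. A match is a description of the letters and no evidence of binding. Only exact matches were counted, so a gene without a match may still hold an element that differs in a letter. The ER stress response elements are shown first because the genes that carry them had unlike values in the GH livers, with capitals on the CCAAT and CCACG boxes and each read 5′ to 3′ in the direction of the motif.
Hspa5: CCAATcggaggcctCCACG
Syvn1: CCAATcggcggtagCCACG
Creld2: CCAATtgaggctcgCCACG
Canx: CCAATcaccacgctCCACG
Dnajc3: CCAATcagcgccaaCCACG
Hsp90b1: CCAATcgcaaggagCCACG
Hsp90b1, other copy: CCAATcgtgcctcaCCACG
Calr: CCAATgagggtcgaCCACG
Pdia6: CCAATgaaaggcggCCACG
Derl3: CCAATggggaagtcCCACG
The shorter form was found in Dnajb11 and Herpud1, with capitals on its paired boxes.
Dnajb11: ATTGGcCCACG
Herpud1: ATTGGgCCACG
The ATF4-type elements, in capitals with 8 bases on each side, were found in Herpud1 and in 3 genes of the ATF4 and CHOP branch.
Herpud1: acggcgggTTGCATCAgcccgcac
Chac1: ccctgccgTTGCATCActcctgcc
Trib3: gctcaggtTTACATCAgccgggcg
Asns: gcgggaagTTTCATCAtgtggctg

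For wider context, the 250 bases before the RefSeq start are shown for Hspa5, which fell, for Pdia6, whose adjusted p missed the threshold with a positive fold change, and for Herpud1, which carries both kinds of element. Each is the plus strand of GRCm38.p6, 5′ to 3′, with the matched elements in capitals. The windows are chr2:34771840-34772089 for Hspa5, chr12:17266339-17266588 for Pdia6 and chr8:94386179-94386428 for Herpud1.
Hspa5: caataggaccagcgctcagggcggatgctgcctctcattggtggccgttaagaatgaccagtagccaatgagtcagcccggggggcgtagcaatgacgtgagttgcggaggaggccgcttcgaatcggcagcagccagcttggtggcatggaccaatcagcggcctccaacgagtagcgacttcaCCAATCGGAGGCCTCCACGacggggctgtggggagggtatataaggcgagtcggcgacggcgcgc
Pdia6: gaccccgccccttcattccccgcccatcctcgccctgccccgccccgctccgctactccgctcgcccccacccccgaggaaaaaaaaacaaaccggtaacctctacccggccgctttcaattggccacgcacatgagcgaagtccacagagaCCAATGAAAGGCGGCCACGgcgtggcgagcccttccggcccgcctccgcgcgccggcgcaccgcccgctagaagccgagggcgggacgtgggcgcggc
Herpud1: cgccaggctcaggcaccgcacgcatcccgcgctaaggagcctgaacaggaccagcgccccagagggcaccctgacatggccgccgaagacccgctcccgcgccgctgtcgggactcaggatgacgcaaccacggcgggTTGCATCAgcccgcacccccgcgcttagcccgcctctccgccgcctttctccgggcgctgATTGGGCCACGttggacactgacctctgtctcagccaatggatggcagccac
The complete element of Hspa5 begins 65 bases before the start, that of Pdia6 begins 98 bases before it, and the 2 elements of Herpud1 begin 112 and 52 bases before it.

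Total counts per library ran from 19523104 to 23278931, and the groups overlapped in depth. Values are CPM, counts scaled to a common library size, after TMM scaling. Tests are edgeR quasi-likelihood tests with p adjusted by Benjamini-Hochberg over 14235 genes, and "rose" and "fell" mean an adjusted p under 0.05. None of 8 hepatocyte markers passed that test (3 at an unadjusted p under 0.05 and 2 by DESeq2), and their summed level ran from 97623 to 114260 CPM in PBS and from 78584 to 104413 in GH livers. None of 7 Kupffer cell and 7 sinusoidal endothelial markers passed (0 and 2 unadjusted, none by DESeq2). Of 7 stellate cell and fibroblast markers, Dcn fell (log2 fold change -0.38, edgeR adjusted p = 0.00296), with summed levels of 362 to 418 CPM in PBS and 336 to 400 in GH livers. Because secretory plasma cells and pancreatic acinar cells are rich in ER chaperones, their markers were read too: the plasma cell gene Tnfrsf17 had at most 1 count in any library, and of 7 acinar genes Ctrb1, Prss2 and Pnlip had 0 counts in all 12. The acinar list summed to 16.3 to 23.3 CPM in PBS and 9.23 to 22.7 in GH livers, nearly all of it Cela1 (16.0 to 22.6 and 9.10 to 22.0 CPM), which did not pass. The 6 B and plasma cell markers in the table summed to 145 to 455 CPM in PBS and 132 to 308 in GH livers, nearly all of it Sdc1, which hepatocytes also express. None of 10 immediate-early and heat shock genes passed (2 unadjusted, none by DESeq2), with sums of 68.2 to 148 CPM in PBS and 56.7 to 142 in GH livers. The part of the hepatocyte and stellate cell levels in the results was not tested.

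In GH livers, 9 of the 33 genes fell and 2 rose, against a background of 4.79% of all tested genes changed in either direction (2.52% lower and 2.27% higher). The genes that fell were the sensors Eif2ak3 and Atf6, the transcription factors Xbp1 and Atf4, the chaperone genes Hspa5, Dnajb9 and Manf, and the degradation genes Edem1 and Syvn1. Those that rose were the co-chaperone gene Sdf2l1 and the degradation gene Edem2. The median log2 fold change of the 33 genes was -0.13, beside 0.00 for all tested genes, with 22 negative and 11 positive values. In 3 of them, Atf4, Dnajb9 and Edem1, all 6 GH values lay below all 6 PBS values, as they did for 1.72% of tested genes, and in none did all GH values lie above (1.45% of tested genes). Groups that did not overlap in either direction made up 3.18% of tested genes. DESeq2 called 10 lower and 4 higher. With scaling by library totals instead of TMM, 10 of the 33 genes were lower and 1 higher. Edem2 then missed the threshold (log2 fold change 0.28, edgeR adjusted p = 0.0769) and Creld2 passed (-0.85, edgeR adjusted p = 0.0358). Over all genes that scaling put 24.3% of the changed genes on the higher side, where TMM put 47.4%. The TMM factors did not overlap between the groups, at 1.01 to 1.04 in PBS and 0.959 to 0.998 in GH livers.

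The number of changed genes among the 33 depended on single libraries. It was 7 without PBS replicate 2, 6 without PBS replicate 4, 5 without GH replicate 1, 6 without GH replicate 2, 7 without GH replicate 3 and 7 without GH replicate 4. Atf4, Hspa5, Dnajb9, Edem1 and Syvn1 kept their calls in each of the 12 fits that left out 1 library. Atf6 passed in 8 of these fits, Eif2ak3 in 7, Xbp1 in 6, Sdf2l1 in 4, Edem2 in 3 and Manf in 1. Without a filter on low counts 6 of the 33 genes passed, and Hspa5 (edgeR adjusted p = 0.0709), Xbp1, Syvn1, Manf and Sdf2l1 did not. Without GH replicate 6 and PBS replicate 5 together, the libraries farthest from their groups in an earlier account of these data, 10 genes passed: the log2 fold changes of Hspa5 and Syvn1 were then -0.53 and -0.64 (edgeR adjusted p = 0.0572 and 0.0603), and Manf too missed the threshold, while Chac1 and Pdia6 passed.

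**Figure D1:**
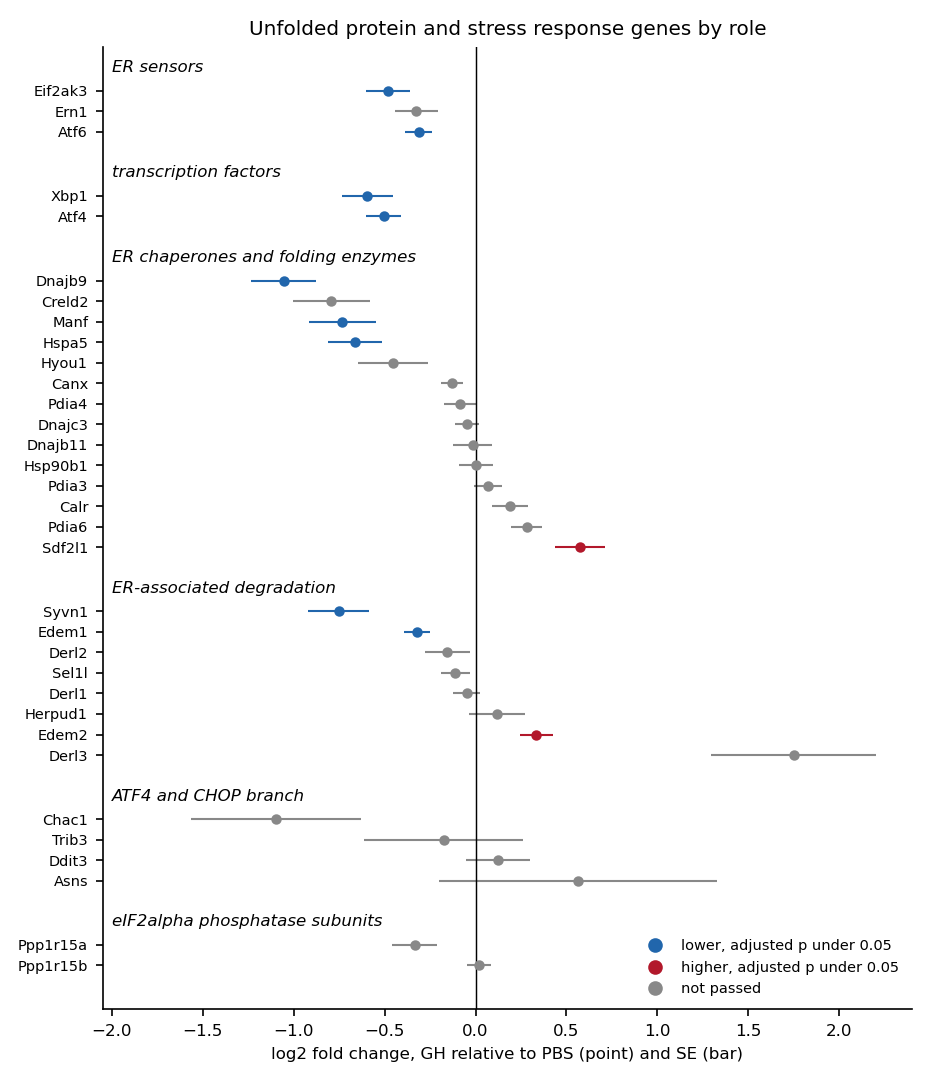
Log2 fold change of each of the 33 genes in GH relative to PBS livers, grouped by role. Points are edgeR estimates and bars are standard errors derived from the edgeR F statistic. The 9 genes that fell are blue, the 2 that rose are red and the 22 that did not pass are grey. The widest bars belong to Asns, Chac1, Derl3 and Trib3, whose coefficients of variation in PBS livers ran from 47.8% to 106%. Counts per library ran from 39 to 591 for Asns, 13 to 168 for Chac1, 12 to 213 for Derl3 and 29 to 231 for Trib3. Ddit3, with 73 to 158, had a narrower bar. The part of counting error in the bars was not tested.

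Transcripts of 2 of the 3 sensors fell. Eif2ak3 encodes PERK and lies at chr6:70844515-70905245 (mm10, GENCODE M21, the source of all gene coordinates below). Its level ran from 19.3 to 27.2 CPM in PBS livers with a median of 20.3, and from 12.5 to 19.5 in GH livers with a median of 14.5. The highest GH value only just passed the lowest PBS value, and PBS replicate 4 stood above the other PBS livers. The log2 fold change was -0.48 ± 0.12 (SE, edgeR adjusted p = 0.0289). Atf6 (chr1:170704674-170867771), the sensor that is itself a membrane-bound transcription factor, ran from 79.9 to 102 CPM with a median of 93.6 in PBS livers. In GH livers it ran from 67.8 to 80.3 with a median of 75.1, so the ranges met at their ends. Its log2 fold change was -0.31 ± 0.07 (SE, edgeR adjusted p = 0.0230). Ern1, which encodes IRE1 alpha, had 53.9 to 89.3 CPM in PBS and 45.3 to 60.8 in GH livers and did not pass (log2 fold change -0.33 ± 0.12, SE, edgeR adjusted p = 0.139), although all 6 GH values lay below the PBS mean.

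Both transcription factor genes fell. Xbp1 (chr11:5520659-5525893), whose spliced product drives ER expansion, ran from 130.5 to 227.2 CPM with a median of 181.9 in PBS livers and from 96.3 to 148.6 with a median of 119.6 in GH livers. GH replicates 5 and 6 lay above the lowest PBS liver, replicate 6. The log2 fold change was -0.60 ± 0.14 (SE, edgeR adjusted p = 0.0245). Atf4 (chr15:80255184-80257541), the central factor of the integrated stress response, ran from 72.5 to 116.1 CPM with a median of 94.3 in PBS livers. In GH livers it ran from 60.0 to 70.8 with a median of 66.2, and the groups did not overlap. Its log2 fold change was -0.50 ± 0.10 (SE, edgeR adjusted p = 0.00722). ATF4 is controlled in large part by translation, which these data do not show.

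Among 14 chaperone and folding enzyme genes, 3 fell and 1 rose, with a median log2 fold change of -0.07. Hspa5 (chr2:34771970-34777547), which encodes BiP, the main Hsp70-type chaperone of the ER, had 599.7, 831, 941, 1219, 1167 and 859 CPM in PBS replicates 1 to 6. In GH replicates 1 to 6 it had 613, 586, 684, 644, 561 and 463 CPM. PBS replicate 1 lay inside the GH range, and the other 5 PBS livers lay above every GH liver. The GH mean was 63.2% of the PBS mean, and the log2 fold change was -0.66 ± 0.15 (SE, edgeR adjusted p = 0.0193). Dnajb9 (chr12:44205559-44210326), which encodes the BiP co-chaperone ERdj4, ran from 39.5 to 86.2 CPM with a median of 48.2 in PBS livers. It ran from 20.5 to 30.7 with a median of 26.1 in GH livers, with no overlap. The GH mean was 48.1% of the PBS mean, and the log2 fold change of -1.06 ± 0.18 (SE, edgeR adjusted p = 0.00594) was the most negative among the genes of the 33 that passed.

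Manf (chr9:106838312-106891979), a secreted ER protein that binds BiP, ran from 68.4 to 145.6 CPM with a median of 106.5 in PBS livers and from 44.7 to 78.7 with a median of 69.1 in GH livers. PBS replicate 1 was again the PBS liver inside the GH range. The log2 fold change was -0.73 ± 0.18 (SE, edgeR adjusted p = 0.0407). Sdf2l1 (chr16:17130138-17132383), which works with BiP co-chaperones to keep proteins soluble, went the other way. It ran from 19.5 to 34.4 CPM with a median of 23.2 in PBS livers and from 29.6 to 44.2 with a median of 36.4 in GH livers. PBS replicate 5 was the PBS liver inside the GH range, and the log2 fold change was 0.57 ± 0.14 (SE, edgeR adjusted p = 0.0279).

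The other 10 genes of this role did not pass. Creld2, an ER-stress-induced secreted protein, had 12.5 to 31.8 CPM in PBS and 10.2 to 17.3 in GH livers, with a log2 fold change of -0.79 ± 0.21 (SE, edgeR adjusted p = 0.0547). It passed by DESeq2, and edgeR gave an adjusted p of 0.00705 without PBS replicate 1. Hyou1, an ER nucleotide exchange factor, had 212 ± 55.1 CPM in PBS and 155 ± 34.9 in GH livers (SD, n = 6 each, edgeR adjusted p = 0.218). The co-chaperone genes Dnajb11 and Dnajc3 had log2 fold changes of -0.01 and -0.05. The large ER Hsp90 gene, Hsp90b1, had 831 ± 101 and 833 ± 81.6 CPM, a log2 fold change of 0.00 ± 0.09 (SE, edgeR adjusted p = 0.993) that became -0.06 with scaling by library totals. Annotated exons of 2 other genes on its strand overlap it, so part of its reads could be counted elsewhere.

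None of the 3 protein disulfide isomerase genes passed by edgeR (1 at an unadjusted p under 0.05), and DESeq2 called Pdia6 higher. Pdia6 had 240.0 to 291.4 CPM with a median of 272.9 in PBS and 263 to 368 with a median of 336 in GH livers (log2 fold change 0.28 ± 0.08, SE, edgeR adjusted p = 0.0717). GH replicate 6 had the lowest of the GH values, and without it the edgeR adjusted p was 0.0143. Pdia3 and Pdia4 had log2 fold changes of 0.07 and -0.09. Of the lectin chaperones of the glycoprotein folding cycle, Calr had 898 ± 105 CPM in PBS and 1023 ± 132 in GH livers (SD, n = 6 each, edgeR adjusted p = 0.321). Canx had 571 ± 30.6 and 522 ± 19.8 CPM (edgeR adjusted p = 0.270). Of the 9 genes with an ER stress response element in the windows above, Hspa5 and Syvn1 fell and the other 7 did not pass. Over all tested genes 4.79% changed. Of the 7, DESeq2 called Creld2 lower and Pdia6 and Derl3 higher.

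**Figure D2:**
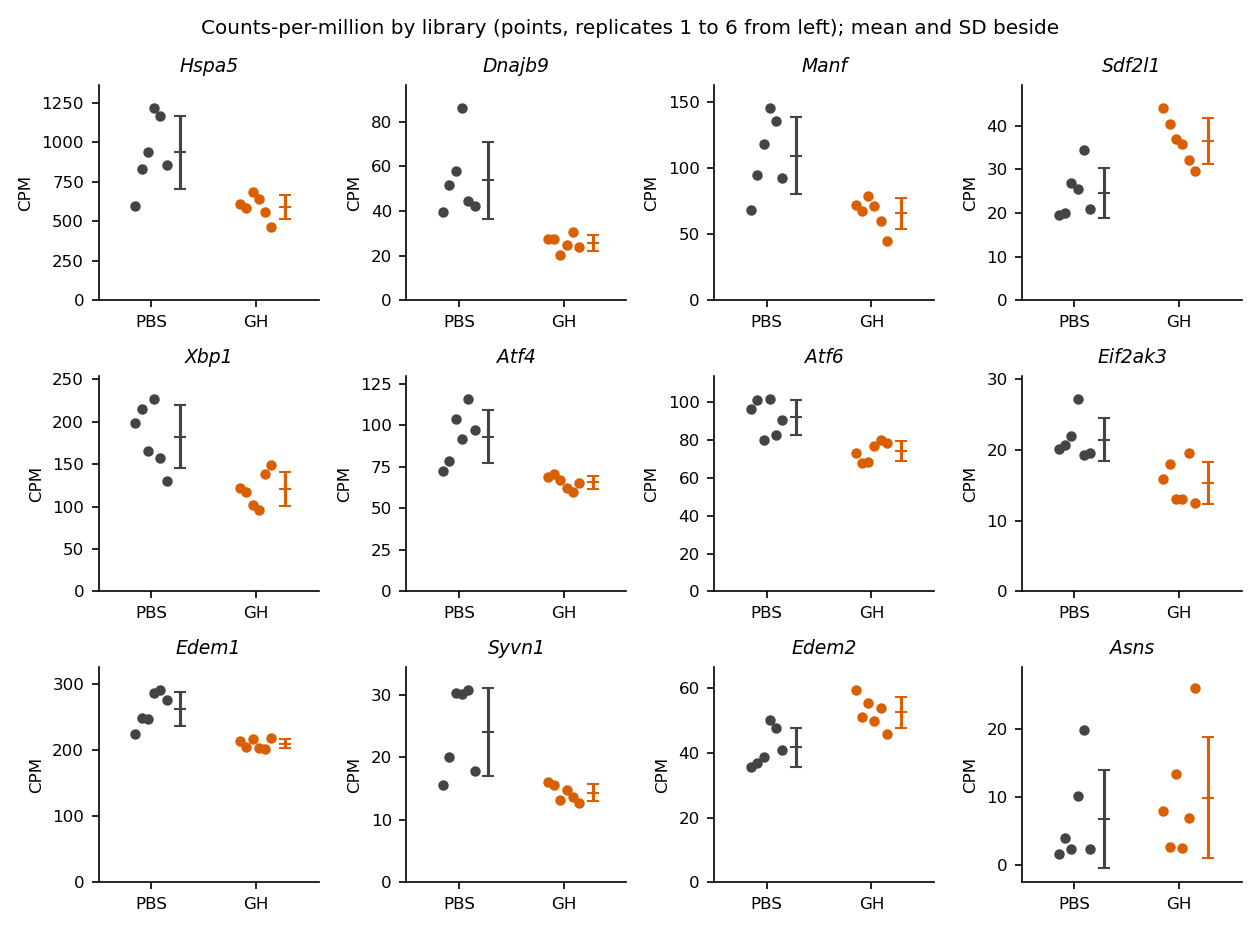
CPM in each library (points, replicates 1 to 6 from left to right within a group) for the 11 genes that passed and for Asns, with the mean and SD of 6 libraries beside them. Groups did not overlap for Dnajb9, Atf4 and Edem1, and PBS replicate 1 is the lowest PBS liver for Hspa5 and Manf.

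Of 8 ER-associated degradation genes, 2 fell and 1 rose (median log2 fold change -0.08). Edem1 (chr6:108828641-108859356), a mannosidase-like protein that hands misfolded glycoproteins to degradation, ran from 224.4 to 291.0 CPM with a median of 261.7 in PBS livers. In GH livers it ran from 201.7 to 218.3 with a median of 208.9, below every PBS liver. The log2 fold change was -0.32 ± 0.07 (SE, edgeR adjusted p = 0.0164). Syvn1 (chr19:6046576-6053712), which encodes the ubiquitin ligase HRD1, ran from 15.6 to 30.8 CPM with a median of 25.1 in PBS livers and from 12.7 to 16.0 with a median of 14.2 in GH livers. PBS replicate 1 fell inside the GH range, and the log2 fold change was -0.75 ± 0.17 (SE, edgeR adjusted p = 0.0202). Edem2 (chr2:155701677-155729475), a mannosidase that starts glycan trimming for degradation, rose. It ran from 35.7 to 50.3 CPM with a median of 39.9 in PBS livers and from 46.0 to 59.6 with a median of 52.5 in GH livers, with PBS replicates 4 and 5 inside the GH range. Its log2 fold change was 0.33 ± 0.09 (SE, edgeR adjusted p = 0.0442).

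Derl3, a derlin of the degradation channel, had the lowest level per exon length of the 33 genes in PBS livers. It had 0.602 to 3.25 CPM with a median of 1.70 in PBS and 2.09 to 10.6 with a median of 6.54 in GH livers, from 12 to 213 counts per library. Its log2 fold change of 1.75 ± 0.45 (SE, edgeR adjusted p = 0.0506) missed the threshold. DESeq2 called it higher, and edgeR gave an adjusted p of 0.0268 without GH replicate 3. The related Derl1 and Derl2 had log2 fold changes of -0.05 and -0.15. Sel1l, the partner of HRD1, had -0.11, and Herpud1, a membrane scaffold of the same complex, had 0.12. None of these 4 passed.

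None of 4 genes of the ATF4 and CHOP branch passed (edgeR, 1 at an unadjusted p under 0.05, none by DESeq2), with a median log2 fold change of -0.03. Ddit3, which encodes CHOP, had 3.43 to 5.47 CPM with a median of 4.38 in PBS livers and 3.70 to 7.48 with a median of 4.32 in GH livers. Its log2 fold change was 0.12 ± 0.18 (SE, edgeR adjusted p = 0.768). Asns, the asparagine synthetase gene, had 1.69, 3.94, 2.42, 10.1, 19.8 and 2.35 CPM in PBS replicates 1 to 6 and 7.96, 2.64, 13.3, 2.46, 6.96 and 26.0 in GH replicates 1 to 6. High and low livers were found in both groups, and the coefficient of variation was 106% in PBS and 89.4% in GH livers. The log2 fold change was 0.57 ± 0.76 (SE, edgeR adjusted p = 0.756). Trib3, a pseudokinase induced by ATF4 and CHOP, had a median of 3.93 CPM in PBS and 3.64 in GH livers (edgeR adjusted p = 0.881). Chac1, a glutathione-degrading enzyme, had 0.604 to 7.53 CPM with a median of 3.35 in PBS and 1.36 to 2.69 with a median of 1.82 in GH livers (log2 fold change -1.10 ± 0.47, SE, edgeR adjusted p = 0.227). PBS replicate 5 held its lowest value, and without that library the edgeR adjusted p was 0.0273.

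Neither regulatory subunit of the eIF2alpha phosphatase passed (edgeR, 1 of 2 at an unadjusted p under 0.05, none by DESeq2). Ppp1r15a, the stress-induced subunit GADD34, had 9.01 to 11.3 CPM in PBS and 5.82 to 10.6 in GH livers (log2 fold change -0.34 ± 0.12, SE, edgeR adjusted p = 0.143, and 0.0440 without GH replicate 5). Ppp1r15b, the constitutive subunit CReP, had 81.5 to 107 and 92.7 to 103 CPM (log2 fold change 0.02 ± 0.07, SE, edgeR adjusted p = 0.909).

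Levels between genes were compared as CPM per kilobase of exon, given as mean ± SD of 6 libraries. Calr was highest, at 312 ± 36.4 in PBS and 355 ± 45.8 in GH livers. In PBS livers Hspa5 (221 ± 54.3), Herpud1 (207 ± 41.4) and Hsp90b1 (206 ± 25.1) followed within their spread. In GH livers Hspa5 was at 140 ± 18.1 and Hsp90b1 at 206 ± 20.2. Xbp1 had 56.1 ± 11.4 and 37.2 ± 6.28 and Atf4 had 39.5 ± 6.82 and 27.9 ± 1.73, in PBS and GH livers. Among the sensors in PBS livers, Atf6 (9.98 ± 1.01) and Ern1 (8.26 ± 1.65) lay within their spread of each other, and Eif2ak3 (3.56 ± 0.494) lay lower. Derl3 was lowest in PBS livers, at 0.913 ± 0.437, and Ddit3, Chac1, Asns and Trib3 were also at the low end.

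**Figure D3:**
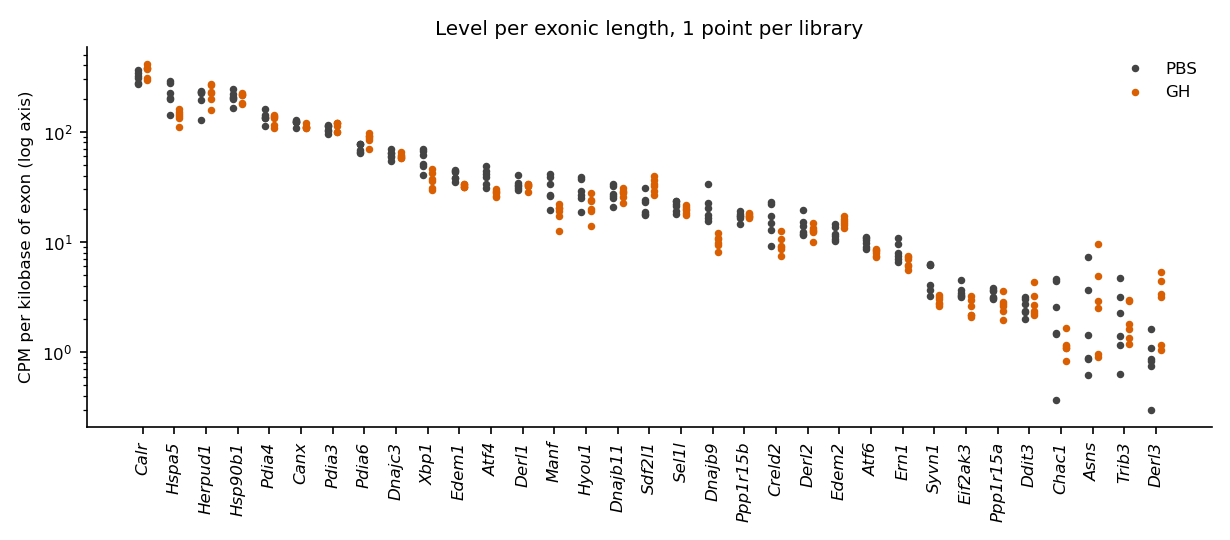
CPM per kilobase of exon (log axis) of the 33 genes in order of level, 1 point per library, with PBS in grey and GH in orange. Calr, Hspa5, Herpud1 and Hsp90b1 lead, Asns, Chac1, Trib3 and Derl3 lie at the low end with wide scatter in PBS livers, and Hspa5 shows most GH livers below most PBS livers.

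The genes were also compared with Hspa5 from liver to liver. Over 12 libraries, log2 CPM of 13 of 32 genes was related to that of Hspa5 (permutation test of Pearson's r with 100000 resamples, adjusted over 32 relations), 12 of them positively, and 12 passed by Spearman's rho. An r at least as large in size as the weakest of these 13 (0.676) was found for 9.52% of all tested genes. Manf followed Hspa5 most closely, with r = 0.989 and rho = 0.986 (permutation p = 1e-05, the smallest these resamples can give, adjusted p = 0.000107), and with r = 0.986 within PBS and 0.982 within GH livers. Creld2 (r = 0.968) and Hyou1 (r = 0.925) came next, with r = 0.939 and 0.928 for Creld2 and 0.950 and 0.985 for Hyou1 within PBS and GH livers. Syvn1 (r = 0.918), Edem1 (r = 0.888) and Atf4 (r = 0.865) passed over all libraries. Within PBS livers their r was 0.885, 0.882 and 0.756, but within GH livers it was 0.425, -0.220 and 0.142. Derl3 was the negative one, with r = -0.846 and rho = -0.895 (permutation, adjusted p = 0.00188 for r). Without PBS replicates 4 and 5, the libraries farthest from the median of Hspa5, 9 relations passed. Values over all 12 libraries include the difference between the groups.

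Some genes had a low r over all libraries and a higher r within each group. Calr had r = 0.0703 over all 12 libraries, but 0.865 within PBS and 0.790 within GH livers. Pdia6 had -0.194 over all libraries and 0.843 and 0.844 within the groups, and Pdia3 had 0.281, with 0.950 and 0.804 within them. By exact permutation tests adjusted over 32 relations, Calr and Pdia6 passed in neither group (adjusted p = 0.0718 within PBS and 0.148 within GH livers for both), and Pdia3 passed within PBS (0.0333) and not within GH livers (0.104). Over all 32 genes these tests, each over 6 libraries, passed for 10 genes within PBS livers, 9 positively and Trib3 negatively (r = -0.920, adjusted p = 0.0444), and for Hyou1 and Manf within GH livers (adjusted p = 0.0444 for both). In 7 genes, Creld2, Dnajb11, Hyou1, Manf, Pdia3, Pdia4 and Pdia6, r was above 0.8 within both groups, as it was for 0.822% of all tested genes. Xbp1 did not follow Hspa5 in either group, with r = -0.0186 within PBS and -0.893 within GH livers (exact permutation, adjusted p = 0.0533 for GH).

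**Figure D4:**
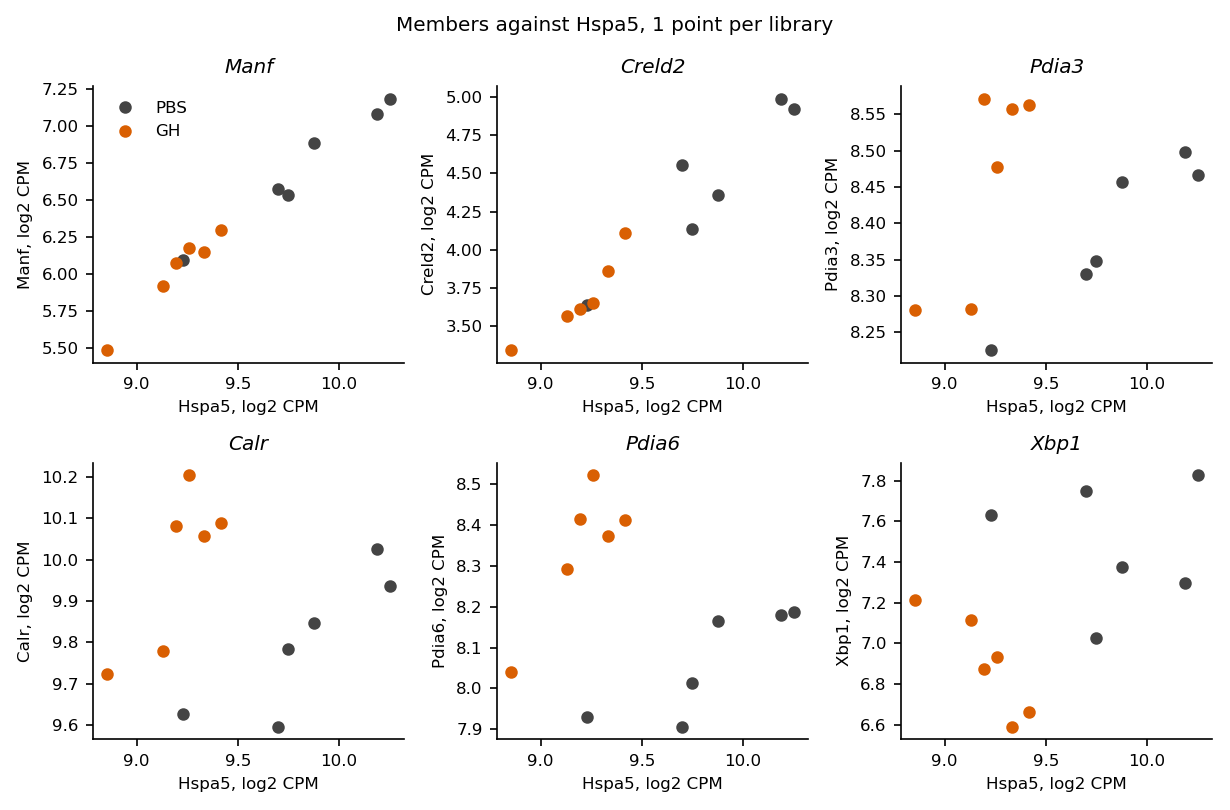
Log2 CPM of 6 genes against log2 CPM of Hspa5, 1 point per library, with PBS in grey and GH in orange. For Manf and Creld2 all livers lie along 1 line, for Pdia3, Calr and Pdia6 each group has its own rising run, with PBS replicate 1 the single PBS liver inside the GH range of Hspa5, and for Xbp1 the GH livers slope downward.

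The level of each gene relative to Hspa5, as the difference of log2 CPM within a library, was also computed. This measure was chosen after the values were seen and is given with no test. Its denominator was itself lower in GH livers (log2 fold change of Hspa5 -0.66), so a gene with a steady level shifts upward by about that amount, as did Hsp90b1, Dnajb11, Pdia4 and Sel1l, whose own log2 fold changes were 0.00, -0.01, -0.09 and -0.11. For 9 of 32 genes, Calr, Dnajb11, Edem2, Hsp90b1, Pdia3, Pdia4, Pdia6, Sdf2l1 and Sel1l, all 6 GH values lay above all 6 PBS values, beside 12.2% of the tested genes, and none of the 32 had all GH values below (0.0562%). Calr went from -0.03 ± 0.24 in PBS to 0.79 ± 0.13 in GH livers (SD, n = 6 each), and Pdia6 from -1.77 ± 0.27 to -0.86 ± 0.11. Manf was at -3.11 ± 0.07 and -3.18 ± 0.10, so its level relative to Hspa5 overlapped between groups. The scatter also differed: the coefficient of variation of CPM was smaller in GH than in PBS livers for 26 of the 33 genes (78.8%), beside 60.2% of all tested genes. Its median over the 33 genes was 17.3% in PBS and 12.4% in GH livers.

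The rest of the pathway was read from lists of 107 further genes, of which 106 were found in the table under these symbols and 100 were tested. Of these, 11 fell and 6 rose (17%), with a median log2 fold change of -0.04. Over all tested genes 4.79% changed, 2.52% lower and 2.27% higher. These shares are also the background for each list below. Among 25 genes for protein entry into the ER, glycosylation and export, 4 fell and 3 rose. The list held 3 genes of the COPII coat, which forms the vesicles that carry cargo out of the ER, and all 3 fell. Coat genes outside the list were not read, so this does not describe the coat as a whole. Sec23b had 61.6 ± 15.7 CPM in PBS and 32.9 ± 4.19 in GH livers (SD, n = 6 each, log2 fold change -0.90, edgeR adjusted p = 0.00399). Sec24d had 84.1 ± 14.2 and 56.4 ± 8.86 CPM (log2 fold change -0.58, edgeR adjusted p = 0.0117), and Sec31a had 95.3 ± 7.58 and 74.7 ± 4.16 CPM (-0.35, edgeR adjusted p = 0.00526). Of the genes that rose, Ssr4, a subunit of the translocon-associated complex, had 67.9 ± 5.25 and 93.5 ± 11.1 CPM (0.46, edgeR adjusted p = 0.00451), and Rpn2, a subunit of the oligosaccharyltransferase, had 174 ± 13.2 and 218 ± 17.7 CPM (0.33, edgeR adjusted p = 0.0165).

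Among 25 genes of ATF6 and XBP1 activation and further folding enzymes, 2 fell and 2 rose, with a median log2 fold change of 0.06. The prolyl isomerase gene Ppib rose from 244 ± 23.9 to 313 ± 25.5 CPM (SD, n = 6 each, log2 fold change 0.36, edgeR adjusted p = 0.0160), and Erp29, a folding factor of the disulfide isomerase family, rose from 29.8 ± 2.23 to 38.3 ± 4.53 (0.36, edgeR adjusted p = 0.0176). The thioredoxin-like gene Txndc11 fell from 37.9 ± 7.51 to 25.6 ± 3.15 CPM (-0.57, edgeR adjusted p = 0.0124). Of 16 further degradation genes 3 fell and 1 rose. Ubxn4, which recruits the p97 ATPase, fell from 119 ± 17.0 to 87.1 ± 8.87 CPM (-0.46, edgeR adjusted p = 0.00982), and Selk, an ER selenoprotein gene, fell from 35.3 ± 3.29 to 27.1 ± 2.73 (-0.38, edgeR adjusted p = 0.0111). Os9, a lectin that delivers glycoproteins to HRD1, rose from 214 ± 10.7 to 259 ± 15.7 CPM (0.28, edgeR adjusted p = 0.0179).

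Of 9 genes of eIF2alpha kinases and ATF4 partners 2 fell, 1 of which was Cebpg, a dimer partner of ATF4, at 52.0 ± 4.10 and 41.7 ± 3.03 CPM (SD, n = 6 each, log2 fold change -0.32, edgeR adjusted p = 0.0128). None of 25 further ATF4 target genes passed by edgeR (4 at an unadjusted p under 0.05, 2 lower by DESeq2), and their log2 fold changes ran from -1.58 to 0.74 around a median of -0.04. The 3 with the smallest p were Xpot, a tRNA exporter, at -0.26, Vldlr, a lipoprotein receptor, at -1.58, and Fgf21, a secreted metabolic hormone, at -1.15 (edgeR adjusted p = 0.0644, 0.0729 and 0.118). Vldlr had 2.53 ± 1.40 CPM in PBS and 0.839 ± 0.630 in GH livers (SD, n = 6 each). The remaining 5 genes that passed, named after their values were seen, were Vimp (-0.39, edgeR adjusted p = 0.0245), Spcs2 (-0.48, 0.0247), Ero1l (-0.33, 0.0392) and Atf3 (-1.45, 0.0438), which fell, and Sec11c (0.44, 0.0271), which rose. Of the 12 leave-one-out fits, 9 lost the call of Atf3, 7 that of Ero1l, 7 that of Sec11c, 4 that of Spcs2 and 4 that of Vimp, and 1, without PBS replicate 3, that of Os9 (edgeR adjusted p = 0.0509).

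**Figure D5:**
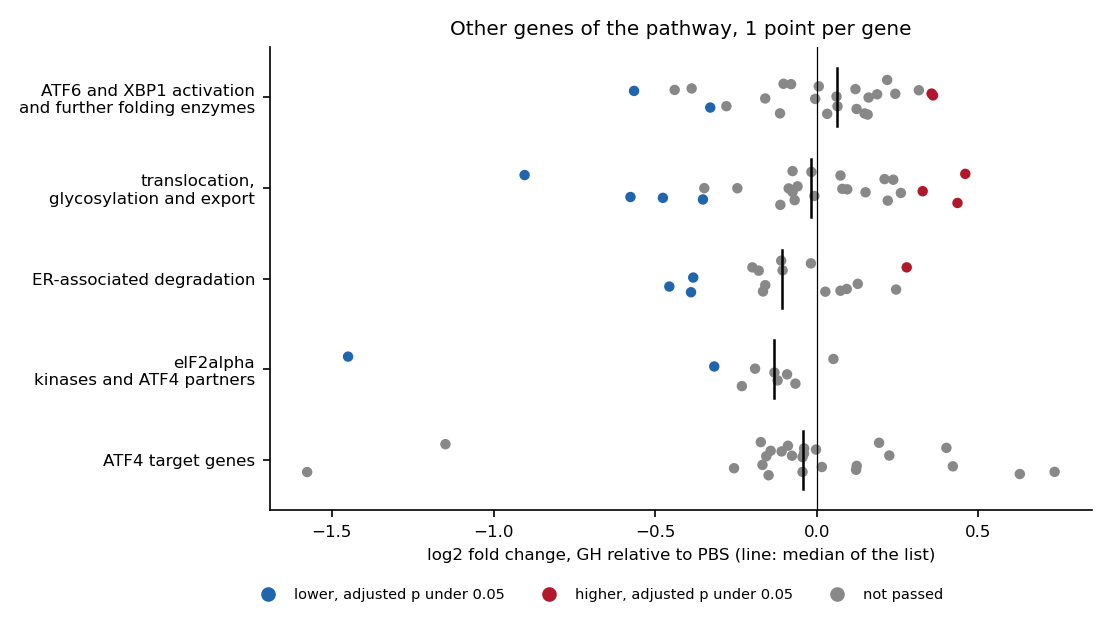
Log2 fold change in GH relative to PBS livers of 100 further genes of the pathway, 1 point per gene in 5 lists, with the vertical line at each list's median. The 11 genes that fell are blue and the 6 that rose are red, and no gene of the ATF4 target list passed.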

How the data were processed

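The authors deposited raw exon counts per gene for 12 libraries; alignment with STAR 2.4.0i to mm10 is per the submitters' processing notes, and for the counting program, gene models and strand setting no name was given in the sources used here. Per the labels, libraries were stranded, rRNA-depleted and made from 250 ng of total RNA with 12 PCR cycles, and counts are reads without molecular identifiers. Groups came from the treatment label. Counts were filtered (filterByExpr, minimum count 10), TMM-scaled and tested with edgeR 4.0.16 (robust quasi-likelihood F test, two-sided, group only) in R 4.3.3, after a test on simulated data. The SE of a log2 fold change is its size divided by the square root of that F statistic. Alternatives were DESeq2 1.42.0, other scalings, no filter, a replicate block and left-out libraries. Exon lengths and coordinates came from GENCODE M21, which held 36308 of the 38087 identifiers, and promoter sequences from RefSeq.

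The 33 genes and all lists were chosen with earlier results of these data known. All 33 genes are accounted for, with values by library group for those past the threshold, for Hspa5, Xbp1, Atf4, Ddit3 and Asns, and for the smallest p of each role. Other pathway genes are named where they passed, up to 12 by smallest p, or the 3 smallest where none passed. Replicates within a group differed beyond counting noise in all 30 pairs.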

Additional observations from a re-analysis of the deposited data

Results flagged for a closer look

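In 66 groups of 6 libraries (33 genes in PBS and in GH livers), 4 held a highest or lowest value whose gap to the nearest other was more than 0.625 of the group's range, and chance gives about 1 in 20 such groups. For Eif2ak3, PBS replicate 4 had 27.2 CPM, while the other PBS livers had 19.3 to 21.9. For Canx, PBS replicate 1 had 511 CPM below the 572 to 600.5 of the others, and GH replicate 4 had 561 CPM above the 507 to 519 of the others. For Derl1, GH replicate 6 had 95.1 CPM, while the other GH livers had 107 to 112.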

How the results depend on the processing

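Over all genes, 682 changed, against 1057 with DESeq2, 391 with a replicate block and 434 to 854 when 1 library was left out. Of the 33 genes 11 changed, against 6 (5 lower, 1 higher) without a filter and 4 (3 lower, 1 higher) with the block, which were Atf4, Dnajb9, Hspa5 and the newly passing Derl3; with it Edem1 (edgeR adjusted p = 0.0659) and Syvn1 (0.0632) did not pass. The number higher was 2, against 4 with DESeq2 and 1 with scaling by library totals. Without 1 library the 33 genes gave 5 to 11 changed, 5 to 10 lower and 0 to 3 higher, and 13 to 22 of the other pathway genes changed, against 17 in all libraries and 9 with the block. The cause of these shifts was not tested. Whether replicate numbers pair the samples is not said by the labels. Deviations of libraries with the same number from their group means correlated at -0.175 to 0.159, over 0.1 in 2 of 6 pairs. Of 6 PBS libraries, 1 correlated best with its own number in the GH group. No test of these correlations was run, so they do not decide the pairing. Scaling by totals turned Hsp90b1 to -0.0561 and Ppp1r15b to -0.0379 (log2 fold change), and leaving out GH replicate 6 and PBS replicate 5 turned Dnajb11 to 0.0989 and Pdia4 to 0.0104. Without 1 library, log2 fold changes crossed 0 for Hsp90b1 (-0.0563 to 0.0525), Trib3 (-0.37 to 0.19), Dnajb11 (-0.0874 to 0.0490), Derl1 (-0.0819 to 0.0112), Ppp1r15b (-0.0210 to 0.0541), Ddit3 (-0.0394 to 0.19) and Asns (-0.00897 to 1.28), none of which passed the test. Derl3 had 12 to 213 counts per library and Ddit3 73 to 158, so counting error is larger for them than for the abundant genes; its part in their spread between libraries was not tested.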
